A study of Rattus norvegicus with 16 samples.

Results

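Acute-phase and interleukin 6 response genes of the rat lung were followed in 9 members, Il6, Osmr, Stat3, Socs3, Serpina3n, Lcn2, Hp, Cp and C3, out of the 14506 genes that the arrays could name. A member was a probe set, the group of probes read out together for a gene, annotated to exactly 1 of these symbols. Where a gene had several, the probe set was chosen by its mean over all 16 arrays, which decided nothing here, because every member had 1. The 9 symbols themselves were drawn up with differences between these groups already known, so counts of members that differed describe the selection as much as the lung.

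The animals were 16 Sprague-Dawley rats, all male, in 4 groups of 4, and RNA from each right lung went to its own array. The first group were normoxic controls. Hypoxic rats spent 2 weeks in a chamber held at 362 mmHg, which corresponds to 10% oxygen at sea level. The third group had the same hypoxia and estradiol (E2), the main circulating estrogen, delivered at 75 µg/kg/day over 3 weeks by a subcutaneous osmotic pump. The fourth group had hypoxia, the same pump and fulvestrant (ICI 182,780), an antagonist of both nuclear estrogen receptors, injected under the skin at 3 mg/kg/day. The labels name no transgene or mutation, and do not state whether the normoxia and hypoxia rats carried empty pumps. The lung vessels had been flushed with saline before freezing.

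Interleukin 6 is a cytokine that signals, with its relatives oncostatin M and leukaemia inhibitory factor, through the shared receptor chain gp130, the product of Il6st. JAK kinases bound to the receptor phosphorylate STAT3, which moves to the nucleus, and STAT3 induces Socs3, whose product shuts the same receptors off. In the liver this pathway, together with interleukin 1 and the factors C/EBP and NF-kappa B, drives the acute-phase proteins, which are secreted into blood in injury and infection. In the lung several of them, lipocalin 2 and complement C3 among them, are also made by epithelial cells and by leukocytes.

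The promoters of 4 members are printed, which hold letters that match motifs of these factors and lie wholly or mostly outside the annotated gene. They are the RefSeq sequences of the build GRCr8, read 5′ to 3′ on the gene's own strand up to the base before the annotated start. The Lcn2 sequence stops 71 bases short of the start used for positions, where the annotated gene begins. Capitals mark matches, on either strand, to the STAT motif TTCNNNGAA, the C/EBP motif TTGCNNAA and the NF-kappa B motif GGNNNTTCC.

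Serpina3n: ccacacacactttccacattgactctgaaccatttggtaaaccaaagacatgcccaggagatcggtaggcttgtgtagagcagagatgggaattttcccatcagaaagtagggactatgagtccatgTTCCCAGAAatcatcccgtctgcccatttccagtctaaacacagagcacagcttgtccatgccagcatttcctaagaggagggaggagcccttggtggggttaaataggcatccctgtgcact
Lcn2: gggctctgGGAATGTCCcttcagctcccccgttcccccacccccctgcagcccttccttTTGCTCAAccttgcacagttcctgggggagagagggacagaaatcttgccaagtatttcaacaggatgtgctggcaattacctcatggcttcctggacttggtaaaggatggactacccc
C3: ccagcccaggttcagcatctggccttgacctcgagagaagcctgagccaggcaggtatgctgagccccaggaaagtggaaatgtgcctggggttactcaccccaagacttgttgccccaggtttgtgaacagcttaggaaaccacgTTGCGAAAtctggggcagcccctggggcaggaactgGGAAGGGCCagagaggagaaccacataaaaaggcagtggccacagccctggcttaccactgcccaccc
Il6: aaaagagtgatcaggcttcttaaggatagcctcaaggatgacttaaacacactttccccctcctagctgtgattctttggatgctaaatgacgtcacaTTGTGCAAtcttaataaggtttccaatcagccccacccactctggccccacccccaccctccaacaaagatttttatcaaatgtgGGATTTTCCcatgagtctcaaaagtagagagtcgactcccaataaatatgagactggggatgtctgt

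Serpina3n (chr6:129088142-129088391, plus strand) held a STAT match, TTCCCAGAA, 123 to 115 bases before the start. For Lcn2 (chr3:36081852-36082030, minus strand) the 179 printed bases lie outside the annotated gene and end 71 bases short of the start used for positions. Lcn2 held an NF-kappa B match 242 to 234 bases and a C/EBP match 191 to 184 bases before that start. C3 (chr9:2201340-2201589, minus strand) held a C/EBP match 104 to 97 bases and an NF-kappa B match 68 to 60 bases before its start. Il6 (chr4:5894576-5894825, minus strand) held a C/EBP match at 152 to 145 bases and an NF-kappa B match, GGATTTTCC, at 67 to 59 bases. Windows were found for 8 of the 9 members. Those of Cp, Osmr, Socs3 and Stat3 lay wholly or largely inside the annotated gene and are not printed, although Cp held a C/EBP match and Stat3 an NF-kappa B match. Over these 8 windows of 250 bases the STAT motif occurred in 1, against 7.67% of 33469 promoters of that length. The C/EBP motif occurred in 4 of 8, against 9.22% of promoters, and the NF-kappa B motif in 4 of 8, against 15.4%. The hypoxia response letters ACGTG or GCGTG occurred in 3 of 8, those of C3, Socs3 and Stat3, against 36.7%. These are matches of letters and show no binding.

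The deposited values are log2 signals after RMA, a method that corrects background, normalises between arrays and summarises the probes of a probe set. A difference of 1 is a 2-fold change. Array medians lay between 7.69 and 7.77, and 25% of all genes had a mean under 6.77. Markers of lung were high in every array, with means of 13.92 for the surfactant gene Sftpc, 13.75 for the club cell secretoglobin Scgb1a1 and 13.53 for the alveolar type 1 gene Ager. Normoxia replicate 4 is called normoxia in its title and hypoxia in its treatment field, and it was kept as normoxia. For Osmr, Lcn2 and Cp, which rose in hypoxia, it was the lowest normoxia array, and for Serpina3n it was the highest at 6.99, still below the lowest hypoxic array at 7.67. In lung homogenate, fewer cells of a type and less RNA per cell cannot be told apart.

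In hypoxia against normoxia 4 of the 9 members rose and 0 fell: Serpina3n, Lcn2, Osmr and Cp. Among all genes 3.21% were called higher and 2.43% lower. A call means an adjusted p under 0.05 in limma's linear model, fitted to all 14506 genes and adjusted over them by the Benjamini-Hochberg method. All 9 differences were above 0, with a median of 0.38 on the log2 scale against 0.03 over all genes. In those same 4 members every hypoxia array lay above every normoxia array, as it did in 6.74% of all genes. The other 5 (Il6, Stat3, Socs3, Hp and C3) were not called. The symbols were selected with this contrast known, and nothing is read from the counts.

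**Figure D1:**
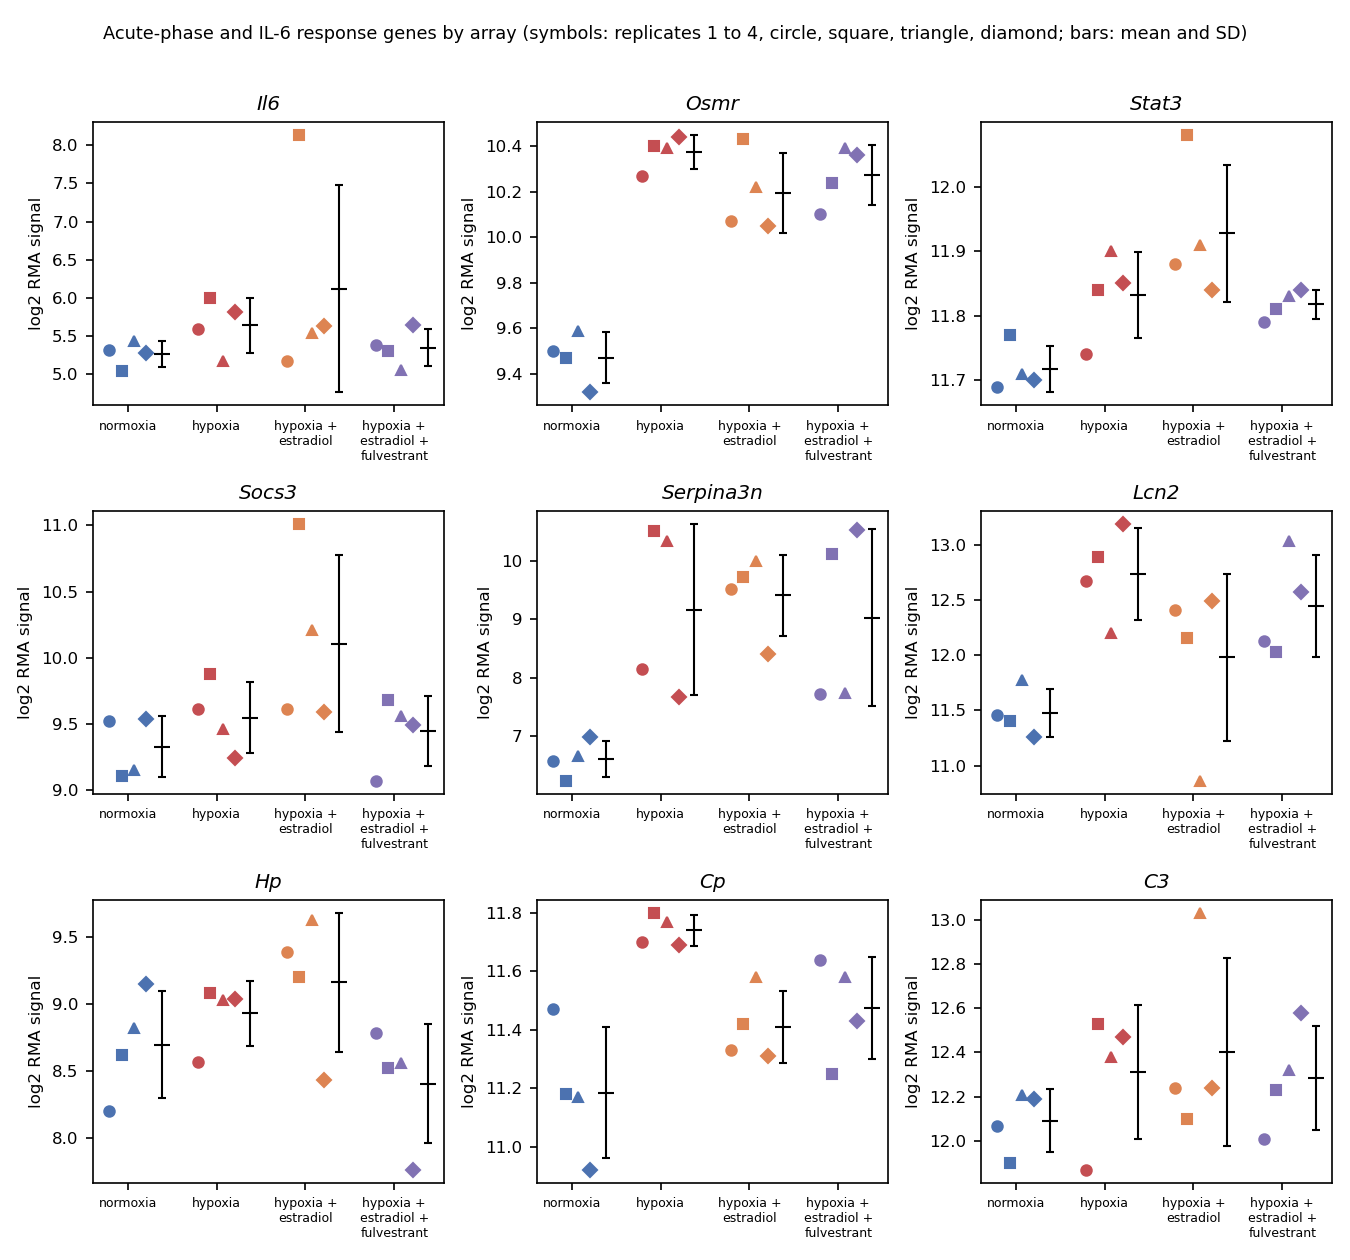
Log2 RMA signal (y axis) of each of the 9 genes in every array, by group (x axis), with symbols for replicates 1 to 4 and bars for the group mean and SD (n = 4); each panel has its own y range, so levels are not comparable between panels. Osmr and Serpina3n have all 12 hypoxic arrays above the 4 normoxia arrays, and 1 estradiol array stands at 8.13 for Il6. At most 5.03% of all genes can have all 12 above, since that share had every estradiol array above normoxia.

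Il6 encodes the ligand, interleukin 6 (probe set 10859799). Il6 read 5.32, 5.04, 5.44 and 5.28 in normoxia and 5.59, 6.0, 5.17 and 5.82 in hypoxia. Il6 in the estradiol group read 5.18, 8.13, 5.54 and 5.64, and in the fulvestrant group 5.38, 5.31, 5.06 and 5.65. The signal was dim, with a mean of 5.60 over the 16 arrays that lay below the lowest 25% limit of 6.77, and all 4 groups overlapped. A single array, estradiol replicate 2, stood far above the other 15. Means were 5.27 ± 0.17 in normoxia, 5.35 ± 0.24 with fulvestrant, 5.65 ± 0.36 in hypoxia and 6.12 ± 1.35 with estradiol (SD, n = 4), an order in which no neighbours differed beyond their spread. Hypoxia minus normoxia was 0.38 (SE 0.444, 95% interval -0.56 to 1.32, adjusted p = 0.684). The estradiol group exceeded hypoxia by 0.48 (SE 0.444, adjusted p = 0.639), and this turned to -0.19 (adjusted p = 0.67) without estradiol replicate 2. Dim probe sets understate change in RMA values, so these folds are less certain than those of the brighter members.

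Osmr encodes the chain of the oncostatin M receptor that pairs with gp130 (probe set 10821698). Osmr read 9.50, 9.47, 9.59 and 9.32 in normoxia and 10.27, 10.40, 10.39 and 10.44 in hypoxia. Osmr read 10.07, 10.43, 10.22 and 10.05 with estradiol and 10.10, 10.24, 10.39 and 10.36 with fulvestrant added. The normoxia arrays formed a narrow low group and all 12 hypoxic arrays lay above them, so hypoxia with or without the drugs did not overlap with normoxia. Group means ran from 9.47 ± 0.11 in normoxia through 10.19 ± 0.18 with estradiol and 10.27 ± 0.13 with fulvestrant to 10.37 ± 0.07 in hypoxia (SD, n = 4). The last 3 overlapped with their neighbours. Hypoxia raised Osmr 1.87-fold (log2 difference 0.90, SE 0.089, adjusted p = 2.85e-05), which placed it at rank 12 of all genes by p. It was 1.65-fold above normoxia with estradiol (0.72, adjusted p = 0.0002) and 1.74-fold with fulvestrant added (0.80, adjusted p = 0.000105). Estradiol minus hypoxia was -0.18 (95% interval -0.37 to 0.01, adjusted p = 0.334).

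Stat3 encodes the transcription factor that carries the signal to the nucleus (probe set 10747506). Stat3 read 11.69, 11.77, 11.71 and 11.70 in normoxia and 11.74, 11.84, 11.90 and 11.85 in hypoxia. Stat3 read 11.88, 12.08, 11.91 and 11.84 with estradiol and 11.79, 11.81, 11.83 and 11.84 with fulvestrant added. Group means ran from 11.72 ± 0.04 in normoxia through 11.82 ± 0.02 with fulvestrant and 11.83 ± 0.06 in hypoxia to 11.93 ± 0.11 with estradiol (SD, n = 4). The range over all 16 arrays was small, and 11 of the 12 hypoxic arrays exceeded the highest normoxia array. Hypoxia minus normoxia was 0.12 (SE 0.057, adjusted p = 0.252) and estradiol minus hypoxia 0.09 (95% interval -0.03 to 0.21, adjusted p = 0.446). With estradiol Stat3 was 1.16-fold above normoxia (log2 0.21, SE 0.057, adjusted p = 0.0417). That call was lost in 19 of 26 alternative fits, where the difference ran from 0.15 to 0.24. These values are of mRNA, and STAT3 acts through phosphorylation, which the arrays do not read.

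Socs3 encodes the feedback inhibitor that STAT3 induces (probe set 10749372). Socs3 read 9.52, 9.11, 9.15 and 9.54 in normoxia and 9.61, 9.88, 9.46 and 9.24 in hypoxia. Socs3 read 9.61, 11.01, 10.21 and 9.59 with estradiol and 9.07, 9.68, 9.56 and 9.49 with fulvestrant added. Means were 9.33 ± 0.23 in normoxia, 9.45 ± 0.27 with fulvestrant, 9.55 ± 0.27 in hypoxia and 10.11 ± 0.67 with estradiol (SD, n = 4), and hypoxia minus normoxia was 0.22 (SE 0.251, adjusted p = 0.681). Estradiol replicates 2 and 3 were the highest arrays, and the other pair of that group lay within the range of the hypoxia arrays. Estradiol minus hypoxia was 0.56 (SE 0.251, 95% interval 0.02 to 1.09, adjusted p = 0.29), and fulvestrant minus estradiol was -0.66 (95% interval -1.19 to -0.12, adjusted p = 0.229). Neither difference passed the test. Without estradiol replicate 2 they were 0.26 and -0.36, and without both estradiol replicates 2 and 3 they were 0.05 and -0.15. All 4 estradiol arrays exceeded all 4 normoxia arrays, at a difference of 0.77 (adjusted p = 0.0942).

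Serpina3n, a secreted inhibitor of serine proteases related to human alpha-1-antichymotrypsin, changed most of the members (probe set 10886621). Serpina3n read 6.58, 6.24, 6.67 and 6.99 in normoxia and 8.15, 10.50, 10.33 and 7.67 in hypoxia. Serpina3n read 9.51, 9.72, 9.99 and 8.41 with estradiol and 7.72, 10.12, 7.74 and 10.53 with fulvestrant added. All 12 hypoxic arrays lay above normoxia, but within hypoxia and within the fulvestrant group a pair of rats stood above 10 and a pair near 8, with nothing between. The mean went from 6.62 ± 0.31 to 9.16 ± 1.46 (SD, n = 4), and the level rose 5.82-fold in hypoxia (log2 2.54, SE 0.69, 95% interval 1.08 to 4.01, adjusted p = 0.0421). That call was lost when hypoxia replicate 2 (2.10, adjusted p = 0.127) or 3 (2.15, adjusted p = 0.0899) was left out, and likewise without any single normoxia array. With estradiol Serpina3n was 6.91-fold above normoxia (log2 2.79, adjusted p = 0.0288), a call lost in 11 of 26 alternatives, among them leaving out normoxia replicate 1, 2 or 3 or estradiol replicate 1, 2 or 3. With fulvestrant added it was 5.32-fold above (2.41, adjusted p = 0.0783). Its SD within groups, 1.12, ranked 11 among 14506 genes, whose median was 0.12. The 3 hypoxic groups could not be ordered: estradiol minus hypoxia was 0.25, with an interval from -1.22 to 1.71.

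Lcn2 encodes lipocalin 2, which binds bacterial siderophores and comes from epithelium and from neutrophil granules (probe set 10844331). Lcn2 read 11.46, 11.40, 11.78 and 11.26 in normoxia and 12.67, 12.89, 12.20 and 13.19 in hypoxia. Lcn2 read 12.41, 12.16, 10.86 and 12.49 with estradiol and 12.13, 12.03, 13.04 and 12.57 with fulvestrant added. It was high in 11 of the 12 hypoxic arrays, and the exception, estradiol replicate 3, was the lowest of all 16. The mean went from 11.48 ± 0.22 to 12.74 ± 0.42 in hypoxia, then 11.98 ± 0.76 with estradiol and 12.44 ± 0.46 with fulvestrant (SD, n = 4). Hypoxia raised Lcn2 2.40-fold (log2 1.26, SE 0.313, 95% interval 0.60 to 1.93, adjusted p = 0.0269). Leaving out normoxia replicate 1, 2 or 4, or hypoxia replicate 1, 2 or 4, ended the call, with differences from 1.11 to 1.29 and adjusted p up to 0.0791. Estradiol minus hypoxia was -0.76 (95% interval -1.42 to -0.10, adjusted p = 0.256), which did not pass, and -0.39 without estradiol replicate 3. Serpina3n and Lcn2 did not peak in the same rat. Hypoxia replicate 4 had the highest Lcn2 of all arrays and the lowest Serpina3n of its group. Hypoxia replicate 2 was high in both, at 12.89 for Lcn2 and 10.50 for Serpina3n.

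Hp encodes haptoglobin, which captures free haemoglobin (probe set 10810923). Hp read 8.20, 8.62, 8.82 and 9.15 in normoxia and 8.57, 9.08, 9.03 and 9.04 in hypoxia. Hp read 9.39, 9.20, 9.63 and 8.43 with estradiol and 8.78, 8.52, 8.56 and 7.76 with fulvestrant added. Means were 8.70 ± 0.40 in normoxia, 8.93 ± 0.24 in hypoxia, 9.16 ± 0.52 with estradiol and 8.41 ± 0.45 with fulvestrant (SD, n = 4). Normoxia alone spanned most of this range, and 3 of the 12 hypoxic arrays exceeded its highest value. Hypoxia minus normoxia was 0.23 (SE 0.258, 95% interval -0.31 to 0.78, adjusted p = 0.662), and estradiol minus hypoxia was 0.23 (adjusted p = 0.703). Fulvestrant minus estradiol was -0.76 (95% interval -1.31 to -0.21, adjusted p = 0.177), which did not pass. Without estradiol replicate 4, the low array of its group, it was -1.0 with an adjusted p of 0.0388.

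Cp encodes ceruloplasmin, the copper-carrying ferroxidase of plasma (probe set 10814430). Cp read 11.47, 11.18, 11.17 and 10.92 in normoxia and 11.70, 11.80, 11.77 and 11.69 in hypoxia. Cp read 11.33, 11.42, 11.58 and 11.31 with estradiol and 11.64, 11.25, 11.58 and 11.43 with fulvestrant added. The hypoxia arrays were the tightest group, at 11.74 ± 0.05 (SD, n = 4), and the highest. Hypoxia raised Cp 1.47-fold (log2 0.55, SE 0.105, 95% interval 0.33 to 0.78, adjusted p = 0.00497). Estradiol minus hypoxia was -0.33 (95% interval -0.55 to -0.11, adjusted p = 0.148), and fulvestrant minus hypoxia was -0.27 (95% interval -0.49 to -0.04, adjusted p = 0.644). Neither passed, although in both every array lay below every hypoxia array. Means ran from 11.19 in normoxia through 11.41 and 11.48 with estradiol and with fulvestrant to 11.74, and only hypoxia stood clear of its neighbour.

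C3 encodes the central complement protein, cleaved in all 3 complement pathways (probe set 10931717). C3 read 12.07, 11.90, 12.21 and 12.19 in normoxia and 11.87, 12.53, 12.38 and 12.47 in hypoxia. C3 read 12.24, 12.10, 13.03 and 12.24 with estradiol and 12.01, 12.23, 12.32 and 12.58 with fulvestrant added. The groups overlapped, with hypoxia replicate 1 the lowest of the 16 arrays and estradiol replicate 3 the highest. Hypoxia minus normoxia was 0.22 (SE 0.186, 95% interval -0.18 to 0.61, adjusted p = 0.561), between means of 12.31 ± 0.30 and 12.09 ± 0.14 (SD, n = 4). The estradiol group, at 12.40 ± 0.42, differed from hypoxia by 0.09 (95% interval -0.30 to 0.49, adjusted p = 0.854), and fulvestrant, at 12.28 ± 0.24, from estradiol by -0.12 (adjusted p = 0.842). Its receptor gene C3ar1 is described with the pathway genes.

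Members differed widely in how far rats of the same group lay apart. The SD within groups was 0.72 for Il6, 0.50 for Lcn2, 0.41 for Hp, 0.40 for Socs3, 0.29 for C3, 0.16 for Cp, 0.13 for Osmr and 0.07 for Stat3, against a median of 0.12 over all genes. Osmr and Cp, called in hypoxia, had an SD close to that median, while Serpina3n and Lcn2, with the larger folds, were among the most variable genes on the array. The calls of Osmr (adjusted p from 8.19e-06 to 0.000196) and Cp (0.00181 to 0.0193) survived leaving out any 1 of the 16 arrays. None of the 4 calls survived when normoxia replicate 4 was counted as hypoxia, which gave 2.23 for Serpina3n, 0.89 for Lcn2, 0.64 for Osmr and 0.30 for Cp, all still positive.

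Estradiol under hypoxia, against hypoxia alone, asks whether the hormone changes the response. Of the 9 members 0 were called by limma, against 0.772% of all genes, and 3 (Lcn2, Cp and Socs3) had an unadjusted p under 0.05, against 16.1% of all genes. Their differences ran both ways, Lcn2 and Cp lower and Socs3 higher. The median over the members was 0.09, against -0.02 over all genes. Cp was the only member with every estradiol array below every hypoxia array, a pattern seen in 3.46% of all genes.

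Fulvestrant added to estradiol asks what depends on the receptors. It too gave 0 calls among the members by limma, against 0.0483% of all genes, and 2 members (Hp and Socs3) had an unadjusted p under 0.05, against 14.8% of all genes. Both were lower with fulvestrant. The median was -0.12, against 0.00 over all genes. Stat3 differed by -0.11 (adjusted p = 0.395), Il6 by -0.77 (adjusted p = 0.444) and Lcn2 by 0.46 (adjusted p = 0.54), and none of these passed. The intervals were wide for the variable members, -1.84 to 1.09 for Serpina3n, and narrow for Osmr, -0.11 to 0.27.

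**Figure D2:**
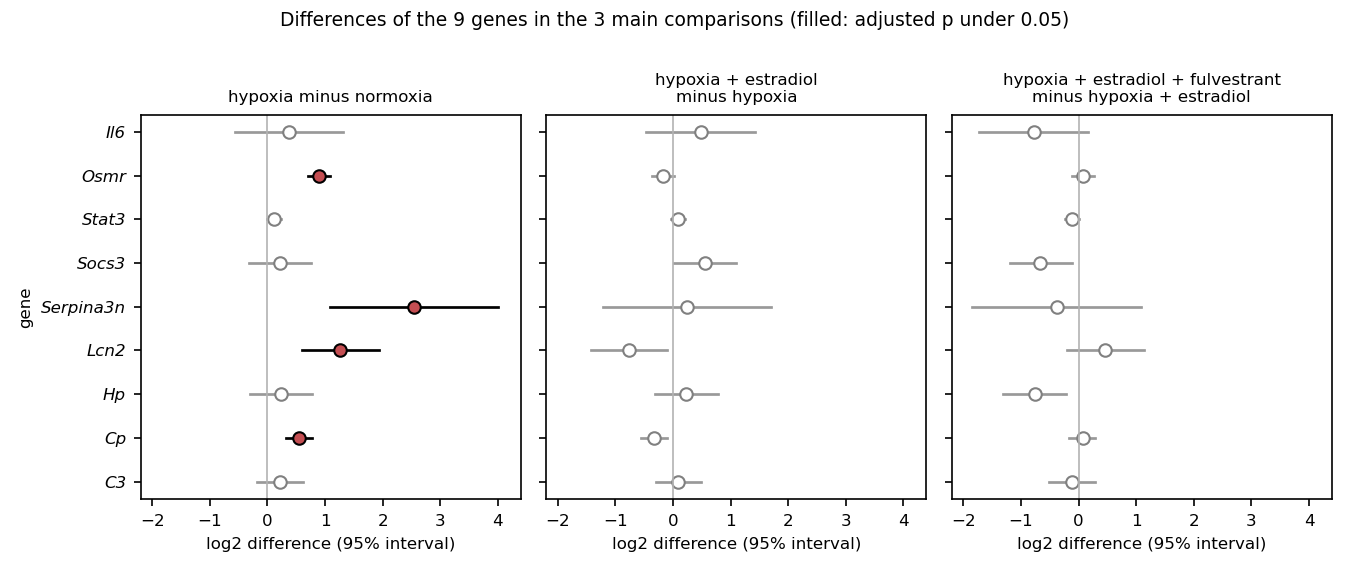
Log2 difference (x axis) with its 95% interval for the 9 genes (y axis) in 3 comparisons, filled where the adjusted p was under 0.05; n = 4 arrays per group. The filled points are Osmr, Serpina3n, Lcn2 and Cp in hypoxia minus normoxia, with none filled in the estradiol and fulvestrant panels.

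Against normoxia, the estradiol group had 3 members called higher (Serpina3n, Osmr and Stat3), against 2.87% of all genes. In 4 members (those 3 and Socs3) every array was higher, against 5.03% of all genes. With fulvestrant added 1 member, Osmr, was called higher, against 1.97%, and in 4 (Serpina3n, Lcn2, Osmr and Stat3) every array was higher, against 7.13%. Lcn2 stood 1.42-fold above normoxia with estradiol (log2 0.50, adjusted p = 0.443) and 1.95-fold with fulvestrant added (0.97, adjusted p = 0.127). Fulvestrant with estradiol against hypoxia alone gave 0 calls by limma among the members and 0% over all genes. There 1 member, Cp, had an unadjusted p under 0.05, against 6.96% of all genes, and every array lower, against 2.74%. These comparisons share arrays with the main ones, so their values stand side by side and are not separate evidence.

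The other genes of the pathway were read from 9 lists with 104 measured genes. In hypoxia against normoxia 14 of them rose and 3 fell, 13.5% and 2.88%, with a median difference of 0.11, against 3.21% and 2.43% of all genes. Of 6 further ligands of the interleukin 6 family 1 rose and 1 fell: Lif, leukaemia inhibitory factor (log2 0.47, adjusted p = 0.0364), and Cntf, ciliary neurotrophic factor (-0.50, adjusted p = 0.0141). The call of Lif was lost in 10 of 26 alternatives, among them leaving out any normoxia array or hypoxia replicate 2, 3 or 4, and that of Cntf in 3 of 26, among them leaving out hypoxia replicate 2. Of 6 receptor chains Il6st, which encodes gp130, rose from 12.51 ± 0.07 to 12.79 ± 0.02 (SD, n = 4; 0.28, adjusted p = 0.0244), and Cntfr, the receptor of ciliary neurotrophic factor, fell from 9.22 ± 0.15 to 8.29 ± 0.25 (-0.93, adjusted p = 0.00342). The interleukin 6 receptor gene Il6r itself differed by -0.13 (adjusted p = 0.512). The Il6st call was lost in 5 of 26 alternatives, among them leaving out normoxia replicate 2 or 4 or hypoxia replicate 1 or 2. Both chains of the oncostatin M receptor, Osmr and Il6st, were thus among the genes called higher, while the oncostatin M gene Osm differed by 0.19 (adjusted p = 0.76).

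Intracellular genes of the pathway gave 1 call in hypoxia. Of 11 kinases, STAT factors and phosphatases 1 fell, Stat4, which acts downstream of interleukin 12 in lymphocytes (-0.82, adjusted p = 0.00187), and 0 rose. Of 8 feedback inhibitors other than Socs3, 0 were called, with a median of -0.07. Of 16 STAT3 and C/EBP targets and partner factors 0 were called, with a median of 0.12, Junb at 0.49 (adjusted p = 0.276) and Cebpd at 0.14 (adjusted p = 0.782) among them. Of 15 upstream genes of interleukin 1, TNF and NF-kappa B 0 were called, with Il1b at -0.53 (adjusted p = 0.278) and Tnf at 0.13 (adjusted p = 0.751).

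Acute-phase proteins and complement held most of the pathway's hypoxia calls. Of 23 further acute-phase genes 6 rose and 0 fell, with a median of 0.30. Kng2 (1.81, adjusted p = 0.000578) and Kng1 (1.40, adjusted p = 0.00118) encode kininogens. The others were Mt1, a metallothionein (0.94, adjusted p = 0.0391), Lbp, which binds lipopolysaccharide (0.67, adjusted p = 0.0284), Timp1 and Serping1. The call of Mt1 was lost in 12 of 26 alternatives and that of Lbp in 6 of 26, each time including fits without normoxia replicate 1 or 4 or hypoxia replicate 1, 2 or 4. Kng1 and Kng2 are near-identical copies whose probes may read each other. Of the same 23 genes A2m (0.29, adjusted p = 0.149), Crp (0.16, adjusted p = 0.23), Orm1 (0.36, adjusted p = 0.308) and Fgb (0.04, adjusted p = 0.815) were not called. Itih4 (0.99, adjusted p = 0.0521) and Fgg (0.53, adjusted p = 0.318) were also not called, with larger differences. For Itih4 and A2m every hypoxia array lay above every normoxia array, as in 6.74% of all genes. Of 7 negative acute-phase genes, which fall in a liver response, 0 were called.

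Of 12 further complement genes 6 rose and 0 fell, with a median of 0.49. C6, a component of the membrane attack complex, rose from 8.63 ± 1.22 to 11.32 ± 0.82 (SD, n = 4; 2.69, adjusted p = 0.00593), although 1 normoxia array at 10.39 lay above the lowest hypoxia array at 10.17. C1s (0.80, adjusted p = 0.00698) and C1r encode the proteases of the first complement complex, and C1qc (0.67, adjusted p = 0.00103), C1qb (0.66, adjusted p = 0.000337) and C1qa its recognition chains. The C1q genes also stand in the list of monocyte and interstitial macrophage markers, where 4 of 11 rose in hypoxia: these 3 and Folr2.

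**Figure D3:**
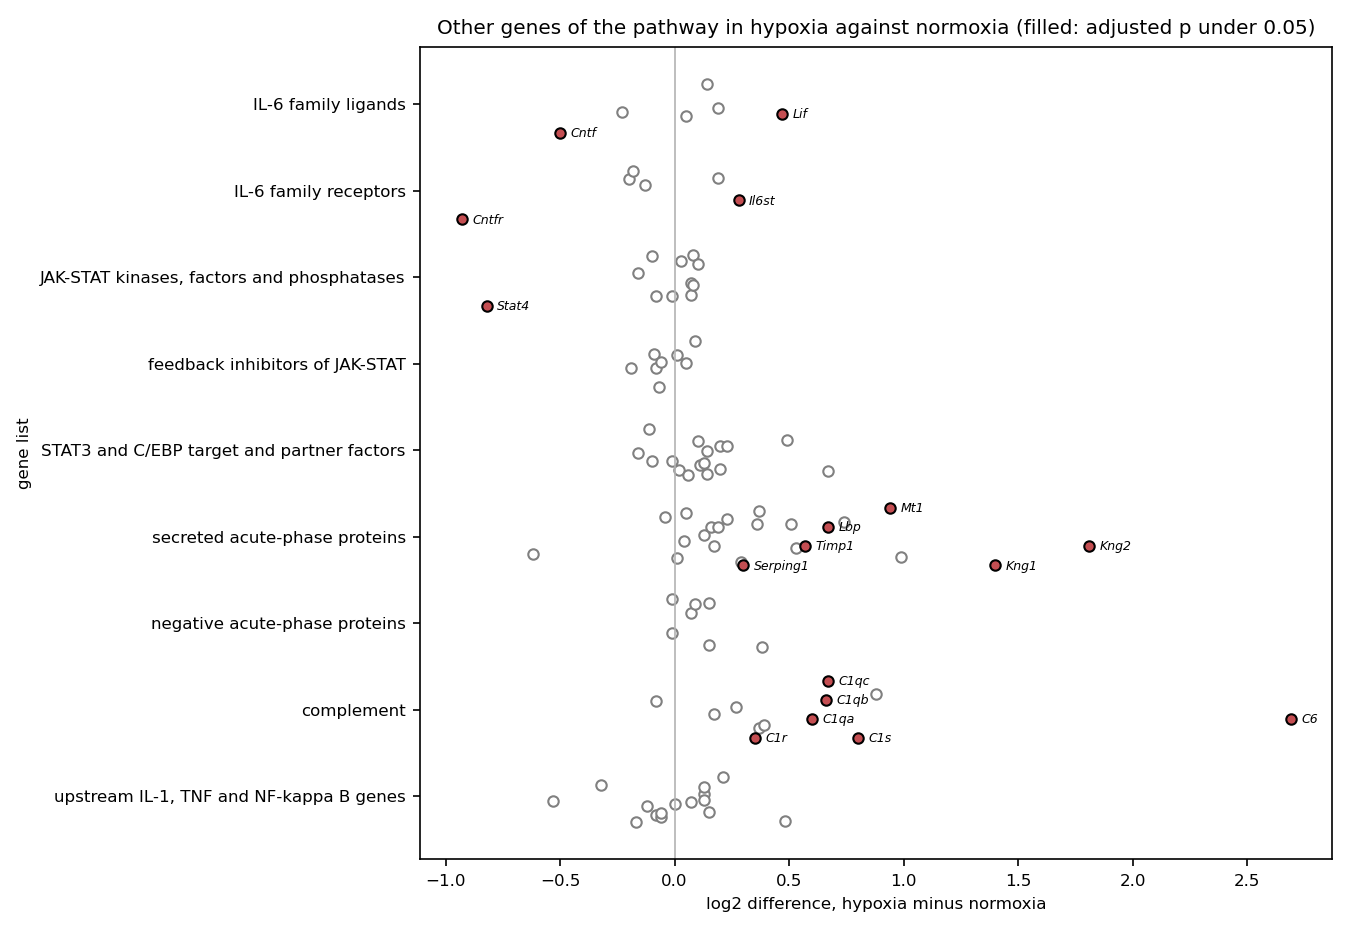
Log2 difference, hypoxia minus normoxia (x axis), of 104 other pathway genes in 9 lists (y axis, with vertical scatter only to separate points), filled and named where the adjusted p was under 0.05. Filled points to the right cluster in the lists headed secreted acute-phase proteins and complement, 6 in each, and C6 lies farthest right at 2.69.

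Estradiol under hypoxia changed 3 of the 104 genes (1.92% higher and 0.962% lower), against 0.772% of all genes in either direction. Cntf rose by 0.56 (adjusted p = 0.0362) from 7.34 ± 0.15 to 7.90 ± 0.05, near its normoxia level of 7.84 ± 0.25, and Jak2, a receptor kinase, rose by 0.29 (adjusted p = 0.0419). C3ar1, the receptor for the C3 fragment C3a, fell from 9.26 ± 0.19 to 8.60 ± 0.25 (SD, n = 4; -0.66, adjusted p = 0.0362), and with fulvestrant added it stood at 9.22 ± 0.03. The call of Jak2 was lost in 19 of 26 alternatives, and those of Cntf and C3ar1 in 10 of 26 each, among them leaving out estradiol replicate 2 or 3 or hypoxia replicate 1, 2 or 4. The monocyte marker Cx3cr1 moved with C3ar1, from 9.99 ± 0.15 in hypoxia to 9.25 ± 0.19 with estradiol (adjusted p = 0.0295) and 9.97 ± 0.18 with fulvestrant (adjusted p = 0.0403). Of the 11 measured genes of its list 1 was lower and 0 higher with estradiol, with a median of -0.13. Cd14 of that list differed by 0.24 (adjusted p = 0.381). C1qa (-0.30), C1qb (-0.32) and C1qc (-0.37) also had every estradiol array below every hypoxia array, without being called. The same held for genes outside that list, C1r (-0.21), C7 (-0.23), C6 (-2.10) and Il6st (-0.17) among them, and for 3.46% of all genes. The part of monocytes and macrophages in the C3ar1 values was not tested. In the other lists the medians were 0.23 for the STAT3 and C/EBP targets and 0.26 for the upstream genes, with 0 calls in either. Of the pathway genes not called, Socs2, another feedback inhibitor (0.72, adjusted p = 0.0596), and C6 (-2.10, adjusted p = 0.073) came closest, followed by Il1b (1.01, adjusted p = 0.0814). With fulvestrant added to estradiol 0 of 104 were called, and the medians of those lists were both -0.33.

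Against normoxia the estradiol group had 14 of 104 genes higher (13.5%) and 3 lower, against 2.87% of all genes higher. They included 4 of the 16 STAT3 and C/EBP targets, Junb (0.94), Ier3 (0.87), Myc (0.65) and Cebpb (0.62), at adjusted p from 0.0129 to 0.041. The mean of those 16 was 0.76 and 0.42 above normoxia in estradiol replicates 2 and 3, and 0.16 and 0.17 in replicates 1 and 4. Junb and Ier3 are also among 13 immediate early genes, of which 4 were called higher here: those 2, Atf3 (1.92) and Jun (0.46). The immediate early mean was highest in the same replicates 2 and 3, and its part in these calls was not tested. The acute-phase glycoprotein gene Orm1 (0.92, adjusted p = 0.0117) and Il1rn, the interleukin 1 receptor antagonist (1.04, adjusted p = 0.0213), were also called there. With fulvestrant added 5 were higher (4.81%, against 1.97% of all genes) and 1 lower, namely Kng2 (1.51), Kng1 (1.10), C1qc (0.54), C1qb (0.52), Hif1a (0.25) and, lower, Cntfr (-0.80). A call in one of these comparisons and not in another is no test of the difference between them.

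Markers of other cells and states moved beside some members. The neutrophil list of 18 genes was higher with estradiol: 8 of 18 rose against hypoxia and 0 fell, with a median of 1.21, led by Mmp8 (1.94), Fcar (1.82) and S100a8 (1.74). Over all genes 112, or 0.772%, were called there in either direction. Without estradiol replicate 2, or without replicate 3, 4 of all genes were called, so these 8 cannot all hold. The mean of the neutrophil list lay between -0.69 and -0.13 of the normoxia mean in the hypoxia arrays and between 0.22 and 1.19 in the estradiol arrays, where replicates 2 and 3 were highest. Neutrophils carry Lcn2 and Hp in their granules. In estradiol replicates 1 to 4 the list mean was 0.39, 1.19, 0.98 and 0.22. In the same order Hp was 9.39, 9.20, 9.63 and 8.43, and Lcn2 was 12.41, 12.16, 10.86 and 12.49. Replicate 3 had the highest Hp and the lowest Lcn2 of all 16 arrays, while replicate 2 had the highest list mean. The alveolar macrophage list of 11 genes was 0.27 to 0.75 above the normoxia mean in hypoxia, and 5 of 11 rose, among them Ctsk (0.98), Gpnmb (0.90) and Fabp4 (0.88). Of 10 endothelial genes 3 rose in hypoxia, Robo4 (0.80), Egfl7 (0.73) and Emcn (0.69), and 1, Tek (-0.35), fell. Robo4 fell by 0.39 with estradiol (adjusted p = 0.0399). The mean of that list was 0.17 to 0.25 above normoxia in the hypoxia arrays, 0.17 to 0.23 with fulvestrant and -0.10 to 0.23 with estradiol, while Osmr was high in all 12. The erythroid list of 8 genes lay between -0.04 and 1.63 in hypoxia. The part of these cells in the members' differences was not tested.

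Hepatocyte markers were not called in any main comparison. The mean of 12 such genes, Alb, F2 and Cps1 among them, lay within -0.09 to 0.17 of the normoxia mean in all 16 arrays. The list shares 4 genes with the negative acute-phase list. The club and airway cell list of 8 genes had 0 calls and varied between rats, from -0.48 in normoxia replicate 1 to 0.79 in hypoxia replicate 3.

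**Figure D4:**
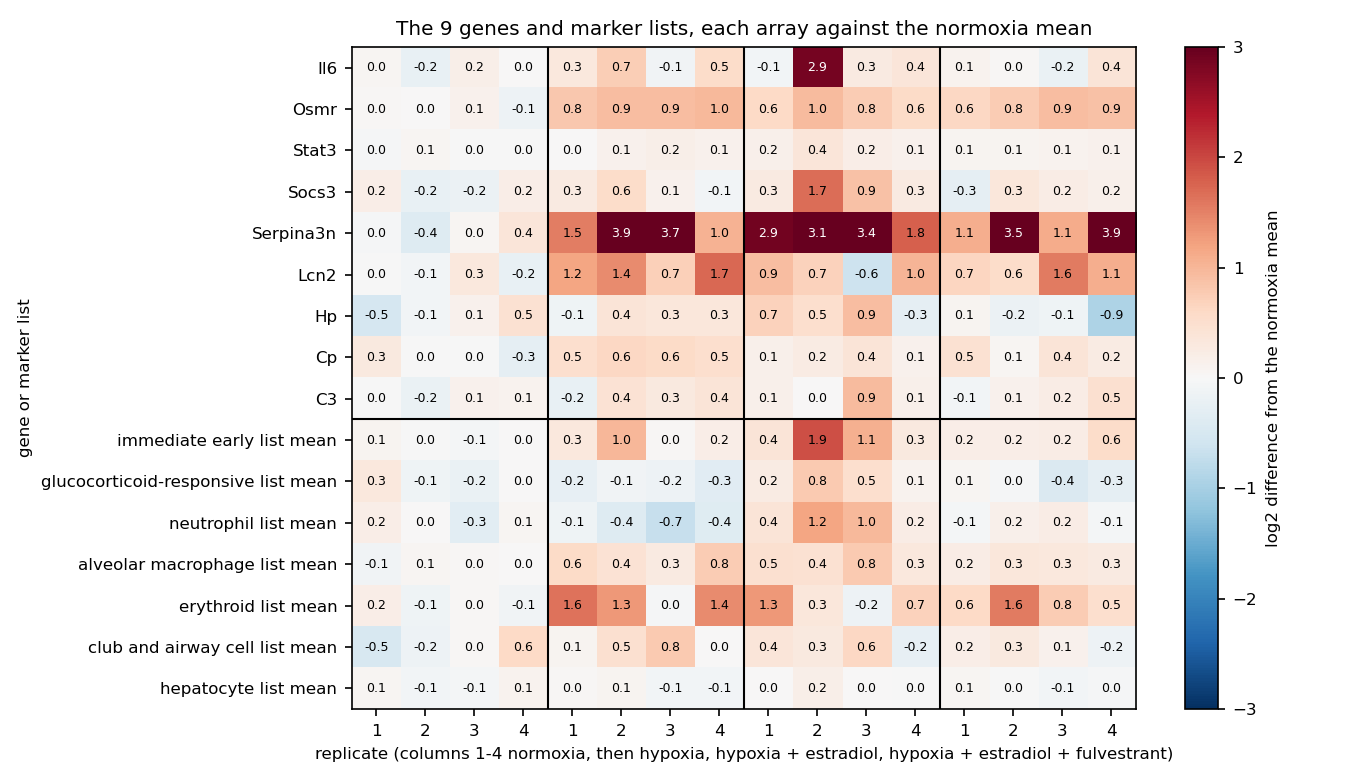
Log2 difference of each array from the normoxia mean (colour and printed value) for the 9 genes and the means of 7 marker lists (rows), with arrays as columns in groups of 4. Serpina3n and Osmr are above the normoxia mean in all 12 hypoxic columns, and estradiol replicate 2 is highest for Il6, Socs3, Stat3 and the immediate early list.

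Il6, Socs3 and Stat3 peaked in the same array, estradiol replicate 2. So did the mean of 13 immediate early genes, such as Fos, Egr1 and Atf3, which cells switch on within minutes of a stimulus. That mean was 1.93 above normoxia in estradiol replicate 2, followed by 1.06 in estradiol replicate 3 and 0.99 in hypoxia replicate 2. It lay between 0.04 and 0.56 in the other hypoxic arrays, and 0 of the 13 genes were called in the 3 main comparisons. A list of 14 glucocorticoid-responsive genes also peaked in estradiol replicate 2, at 0.78. With estradiol against hypoxia 3 of the 14 rose, Per1 (1.31), Tsc22d3 (0.90) and Klf9 (0.71), beside 0.772% of all genes called in either direction. That comparison had 112 calls over all genes, and 4 without estradiol replicate 2. The part of these 2 lists in the values of Il6, Socs3 and Stat3 was not tested.

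**Figure D5:**
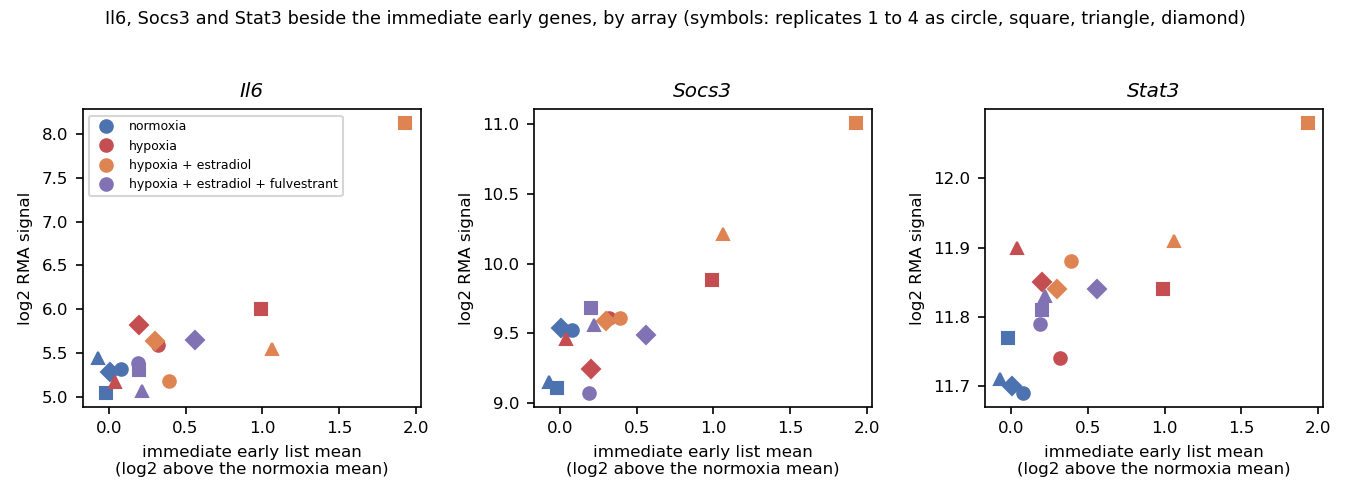
Log2 RMA signal of Il6, Socs3 and Stat3 (y axes) against the mean of the immediate early list above normoxia (x axis), 1 point per array with group by colour and replicate by symbol. The estradiol square at 1.93 carries the highest value in each panel, 8.13 for Il6, 11.01 for Socs3 and 12.08 for Stat3.

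The genes whose values ran most like each member over the 16 arrays are given as a description, since all arrays share the group differences. For Il6 they were Fosl1 (Pearson r = 0.952), Cxcl1, a neutrophil chemokine (0.923), and Mpzl3 (0.920), and these fell to 0.692, 0.630 and 0.409 without the 2 arrays farthest from its median. Osmr ran with Palmd (0.959), the nucleotide receptor gene P2ry2 (0.940) and Rasgrp3 (0.929), which stayed at 0.884 to 0.921. Stat3 ran with Apold1 (0.923), the phosphatase gene Dusp8 (0.885) and Nos2, the inducible nitric oxide synthase (0.882). Without its 2 farthest arrays these were 0.820, 0.831 and 0.756. Socs3 ran with Ppp1r15a (0.938), Jun (0.933) and Slc25a25 (0.923). Of these Jun held best without the 2 farthest arrays, at 0.833, while Ppp1r15a fell to 0.698 and Slc25a25 to 0.577. None of these lists shared a gene.

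Among the secreted members Serpina3n ran with the cystatin gene Cst6 (r = 0.861), Or2l5 (0.833) and Kcnip4 (0.827). Cst6 itself differed by 0.63 between hypoxia and normoxia. Lcn2 ran with Rhobtb3 (0.902), the antiviral gene Ifitm3 (0.900) and Tfpi2 (0.897). Cp ran with Plek2 (0.876), the proteoglycan gene Bgn (0.853) and Lgals3bp (0.852). Hp ran with Gmnn (0.879), the proteasome subunit gene Psmb6 (0.828) and Cct5 (0.823), and C3 with Mgst2 (0.829), Vnn3 (0.795) and Cldn3 (0.751). Without the 2 arrays farthest from each member's median these were 0.546 to 0.739 for C3, 0.664 to 0.817 for Hp and 0.719 to 0.783 for Cp. For Lcn2 they were 0.863 to 0.883 and for Serpina3n 0.831 to 0.882. No member was among the 3 nearest genes of another.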

How the data were processed

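Gene expression was measured on Affymetrix rat gene arrays in 16 lungs, 4 per group. The authors deposited log2 values, made with RMA and Partek per the submitters' processing notes, without versions; the genome build and chip date are not given in the sources used here. RMA makes the distributions of the arrays alike and so hides any change common to most genes. Of 29214 probe sets 15310 carried 1 gene symbol, 323 several and 13581 none; keeping the brightest per gene left 14506 genes. Differences were computed with limma 3.58.1 in R 4.3.3, as 4 group means over all 16 arrays with empirical Bayes moderation and Benjamini-Hochberg adjustment over all genes; standard errors (SE) are moderated. The fit was tested on simulated data. Nothing states separate litters or batches, so p-values measure the spread between these rats, and submission order follows the groups, so batch and group cannot be told apart. Replicate numbers pair nothing. Members, gene lists and alternatives were chosen with earlier results of these data known. Named genes were all members, up to 4 called genes per pathway list and comparison, up to 3 per marker list, and the 3 genes most correlated with each member; other named genes were chosen after their values were seen. Alternatives covered scaling, filters, probe sets, priors, array weights, the label of normoxia replicate 4 and each array left out. Arrays have no count depth, and their number limits the precision.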

Additional observations from a re-analysis of the deposited data

Results flagged for a closer look

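There were 88 sets of 4 arrays (each of the 9 members and 13 marker lists in each group). In each the gap between the highest or lowest array and the next was divided by the range of all 4. In 5 sets this ratio passed 0.829, Dixon's limit for 4 values. About 1 in 20 such sets is expected to pass it by chance. Hp in hypoxia was 8.57 in replicate 1, below the other hypoxia arrays. C3 in the estradiol group was 13.03 in replicate 3, and Il6 in that group was 8.13 in replicate 2, each above the rest. The hepatocyte list mean was 0.17 above normoxia in estradiol replicate 2, and the immediate early list mean was 0.56 above it in fulvestrant replicate 4.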

How the results depend on the processing

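The members' differences in the 3 main comparisons and their 4 calls against normoxia under treatment, 31 results, were recomputed under up to 26 alternatives. Of 803 such values 752 kept their side of the threshold, 50 lost a call, 1 gained one and 0 called values reversed, while 17 values that were not called changed sign. Of 416 values of the 16 named pathway differences 334 kept theirs and 82 lost a call. In hypoxia against normoxia the 4 calls became 0 with normoxia replicate 4 counted as hypoxia and 2 to 4 without 1 array. For all genes that comparison gave 817 calls, 40 with that relabelling and 428 to 986 without 1 array. With estradiol against hypoxia the members stayed at 0 under every alternative run, while calls over all genes went from 112 to between 0 and 355. With fulvestrant added to estradiol the member count was 0, and 0 to 1 without 1 array, and calls over all genes went from 7 to between 0 and 331, the highest without estradiol replicate 4. With estradiol against normoxia the 3 calls became 1 over all probe sets, 1 with array weights, 1 without both estradiol replicates 2 and 3, 0 with the relabelling and 1 to 4 without 1 array. With fulvestrant added against normoxia the 1 call became 2 over only the arrays compared, 2 with array weights, 2 without both estradiol replicates 2 and 3, 0 with the relabelling and 1 to 2 without 1 array. The cause of these shifts was not tested. Il6 was left out by the filter on dim genes, so it has 25 alternatives. No paired analysis was possible because the labels number no replicates across groups. The 4 arrays per group limit precision, most for Serpina3n, whose hypoxia interval ran from 1.08 to 4.01.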
